A study of Microcebus murinus with 8 samples.

Results

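The microRNAs mmr-miR-21, mmr-miR-22, mmr-miR-26a, mmr-miR-26b, mmr-miR-182, mmr-miR-148b and mmr-miR-152, written below without the species prefix mmr-, were followed in blood plasma of the grey mouse lemur, Microcebus murinus, a small nocturnal primate. They were taken by name: 5 are abundant in milk, and miR-148b and miR-152 belong to the family of miR-148a, the best known milk microRNA. All 7 were found among the 108 microRNAs in the tables. The 8 samples came from wild-type animals, 4 on a diet based on dairy fat (samples 1 to 4) and 4 on a diet based on vegetable fat (samples 5 to 8). Age, sex, the length of feeding and the make-up of the diets are not stated in the labels, and nothing there says that each sample came from a separate animal, so p-values measure only the spread between these samples. No sample from animals on another diet was analysed here, so each comparison is of dairy fat against vegetable fat.

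MicroRNAs are short RNAs that guide Argonaute proteins to messenger RNAs, mostly through the seed, a short stretch near their 5′ end, and lower the output of those messengers. In plasma they travel inside vesicles or bound to proteins, and most come from blood cells and vessel walls. Milk carries microRNAs in fat globules and vesicles, and whether those from the diet reach the blood in measurable amounts is debated. MiR-148a, miR-148b and miR-152 share a seed and are known in human and mouse cells to repress DNMT1, a DNA methyltransferase.

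Levels were given as reads per 1000000 reads of the 108 listed microRNAs (RPM). Each table lay on steps of 1 read, from which the reads behind a value could be worked out. These implied reads totalled 1408536 to 3437717 in the dairy fat samples and 1061434 to 4004131 in the vegetable fat samples. Dairy sample 1, with the fewest reads of its diet, stood apart from the other dairy samples in miR-22 and in the ratio of miR-26a to miR-26b, and the values these results take without it are given beside them. A floor of 3 reads stood at 0.749 RPM in the deepest library and 2.83 RPM in the shallowest. Because RPM values are shares, an abundant microRNA that rises lowers the others. Differences are dairy fat minus vegetable fat on the log2(RPM + 1) scale, from limma fitted to the 104 microRNAs that reached 1 RPM in at least 4 samples. Such reads count RNA of either source: a microRNA of the diet with the same sequence as that of the lemur would be counted with it, and the origin of the reads was not tested. Of the markers of red blood cells, miR-486 and miR-15a were listed, 2 of 8 fixed names, and together they took 5.52% to 8.83% of the reads in dairy samples and 5.87% to 10.7% in vegetable samples. Of the fixed platelet and myeloid markers only miR-126 was listed by its exact name (1 of 5), at 0.229% to 0.800% of the reads in dairy samples and 0.213% to 1.13% in vegetable samples. The tables also hold a miR-199 without a letter, which was not counted as the miR-199a of that list. The liver markers and the markers of mammary and other epithelium are not analysed here.

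No member was called higher on dairy fat, and none was called lower. By limma with Benjamini-Hochberg adjustment, 0 of the 6 tested members and 0 of all 104 microRNAs (0%) passed an adjusted p of 0.05, and 0 of the 104 had an unadjusted p under 0.05. The dairy fat and vegetable fat samples overlapped for each of the 7 members, as they did for all 108 microRNAs (0% without overlap). Of the 6 estimates, 5 lay below 0, with a median of −0.22. Over all 104 the median was −0.07, with 64 below 0 and 40 above. With upper quartile scaling 2 of the 6 lay below 0 and 4 above, with a median of 0.04, beside 21 below and 83 above and a median of 0.19 over all 104. For RPM as deposited only miR-26a had an estimate above 0, at 0.04. Against the median of all 104, 5 of the 6 lay below it and 1 above for RPM as deposited, with a trimmed mean of log ratios and with upper quartile scaling, which follows largely from the shift that a scaling gives to all microRNAs alike. The upper 95% confidence limits of dairy fat over vegetable fat hold for RPM as deposited and for independent samples, which the labels do not state. They were 1.18-fold for miR-26b, 1.26-fold for miR-182 and miR-148b, 1.36-fold for miR-26a, 1.42-fold for miR-21 and 1.49-fold for miR-22. With upper quartile scaling all 6 estimates were higher, from −0.22 for miR-148b to 0.31 for miR-26a, and these limits do not apply to it.

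**Figure D1:**
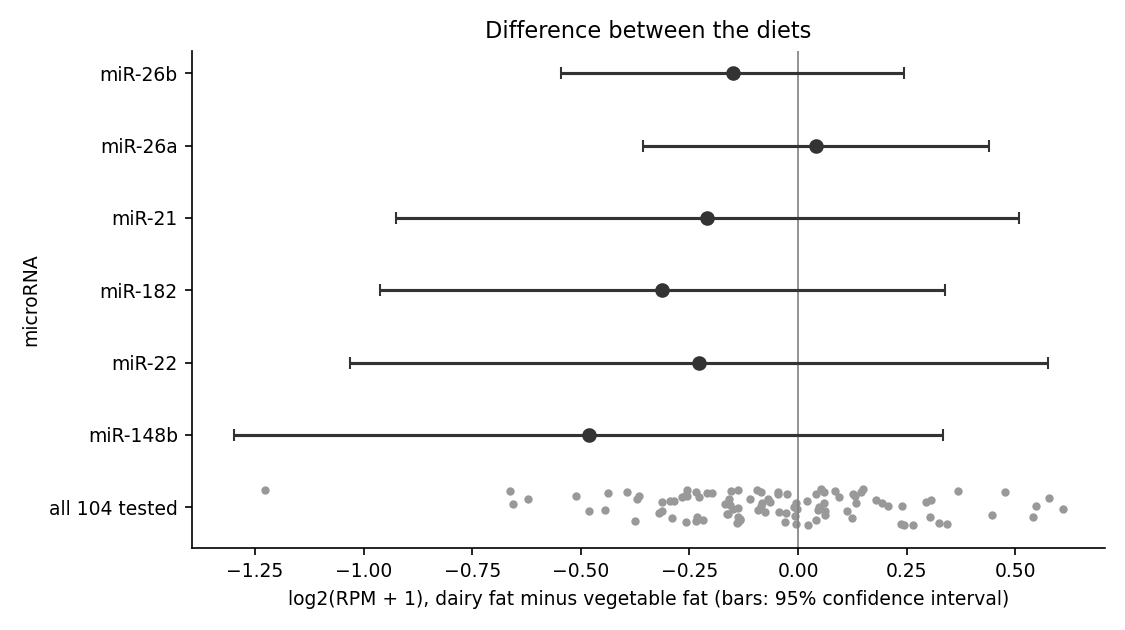
Each black point is the estimated difference of one microRNA on the log2(RPM + 1) scale, dairy fat minus vegetable fat, and each bar is limma's 95% confidence interval (4 samples per diet). The grey points are the estimates of all 104 microRNAs tested, spread vertically only for legibility. All 6 intervals include 0, and they are narrowest for miR-26b and miR-26a.

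The levels spanned more than 4 orders of magnitude. Over all 8 samples the means were 23827 RPM for miR-26b, 23265 for miR-26a, 3525 for miR-21, 847 for miR-182, 567 for miR-22, 336 for miR-148b and 0.583 for miR-152. Among the 108 microRNAs these were ranks 8, 9, 20, 42, 50, 59 and 108, so miR-152 was the scarcest of all. RPM values of different microRNAs also carry the efficiency with which each sequence enters a library, so this order is one of reads. Neighbours in the order were mostly apart by more than their spread, since miR-26a exceeded miR-21 and miR-21 exceeded miR-182 in 8 of 8 samples, and miR-182 exceeded miR-22 in 7 of 8. MiR-26b and miR-26a did not differ beyond their spread (mean log2 ratio 0.03 ± 0.26 SD, n = 8). The same held for miR-22 and miR-148b (0.77 ± 0.87), which had equal reads in dairy sample 3. Together the 7 took 5.11% ± 0.45 of the listed reads in dairy samples and 5.37% ± 0.58 in vegetable samples (SD, n = 4 each). MiR-26a and miR-26b made up 86.1% to 92.8% of that sum in the 8 samples.

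**Figure D2:**
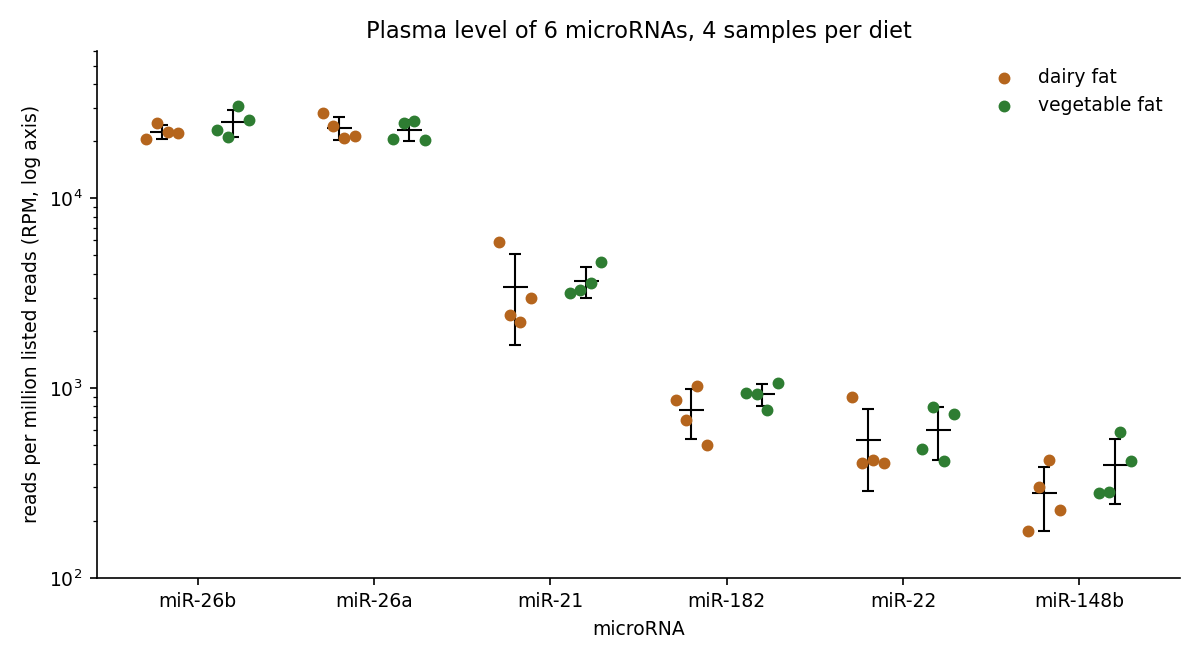
RPM of 6 microRNAs on a log axis, with 1 point per sample, dairy fat left of vegetable fat; the bars are the mean and SD of the 4 samples of a diet. The samples of the diets overlap for each microRNA, and dairy sample 1, the left point of its group, is the highest of the 8 for miR-21, miR-22 and miR-26a. MiR-152, at 0 to 1.42 RPM, lies below the axis.

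MiR-26a and miR-26b share a seed and sit, in human, in introns of genes for small CTD phosphatases. Both are found in nearly all tissues, where they restrain growth and the cell cycle. MiR-26a stood at 28229, 24082, 20875 and 21318 RPM in dairy samples 1 to 4, against 20620, 24969, 25714 and 20315 RPM in vegetable samples 5 to 8. The highest value was from dairy fat and the lowest from vegetable fat, but 2 dairy samples lay below the vegetable fat median. The estimate was 0.04 ± 0.18 (SE; 95% confidence interval −0.36 to 0.44, limma adjusted p = 0.999). Its sign turned when dairy sample 1, vegetable sample 5 or vegetable sample 8 was left out.

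MiR-26b stood at 20585, 24950, 22358 and 22068 RPM in dairy samples 1 to 4, against 22801, 21182, 30741 and 25935 RPM in vegetable samples 5 to 8. The 2 highest values were from vegetable fat, samples 7 and 8. The estimate was −0.15 ± 0.18 (SE; −0.55 to 0.24, limma adjusted p = 0.999). It turned to 0.11 with upper quartile scaling, under which the median of all 104 stood at 0.19, and to 0.03 without the shallowest and the deepest library, vegetable samples 8 and 7. These microRNAs were the steadiest of the 7. Over the 8 samples the SD of log2(RPM + 1) was 0.18 for miR-26a and 0.19 for miR-26b, ranks 2 and 4 from the smallest among the 104. Their highest values were 1.39 and 1.49 times their lowest, where for miR-148b the factor was 3.33 and for miR-21 2.64.

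The ratio of miR-26a to miR-26b depends on no scaling. It was 1.37, 0.965, 0.934 and 0.966 in dairy samples 1 to 4, against 0.904, 1.18, 0.836 and 0.783 in vegetable samples 5 to 8. It ran from 0.783 to 1.37, and lay above 1 in dairy sample 1 and vegetable sample 6 alone. The 4 dairy fat samples were all above the vegetable fat median, while vegetable sample 6 was above 3 of them. The log2 ratio averaged 0.06 ± 0.26 in dairy samples and −0.13 ± 0.26 in vegetable samples (SD, n = 4 each), a difference of 0.19 that did not pass a two-sided exact permutation test (p = 0.371; adjusted over the 3 single values tested, 0.657). The smallest p this design allows is 0.0286. The difference was 0.06 without dairy sample 1 and 0.12 without vegetable sample 8. Vegetable sample 6 was the only vegetable fat sample above any dairy fat sample, so without it the 4 dairy fat samples lay above the 3 others. The difference was then 0.32, the largest with 1 sample left out (exact permutation p = 0.0571, the smallest p that 7 samples allow). Among the 103 other tested microRNAs, miR-26b was the third closest to miR-26a by the SD of the log2 ratio over the 8 samples, 0.26, after miR-98 at 0.16 and miR-532 at 0.26. From miR-26b, miR-26a ranked 6, behind miR-1307 at 0.16, miR-146b at 0.19 and miR-29c at 0.22.

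**Figure D3:**
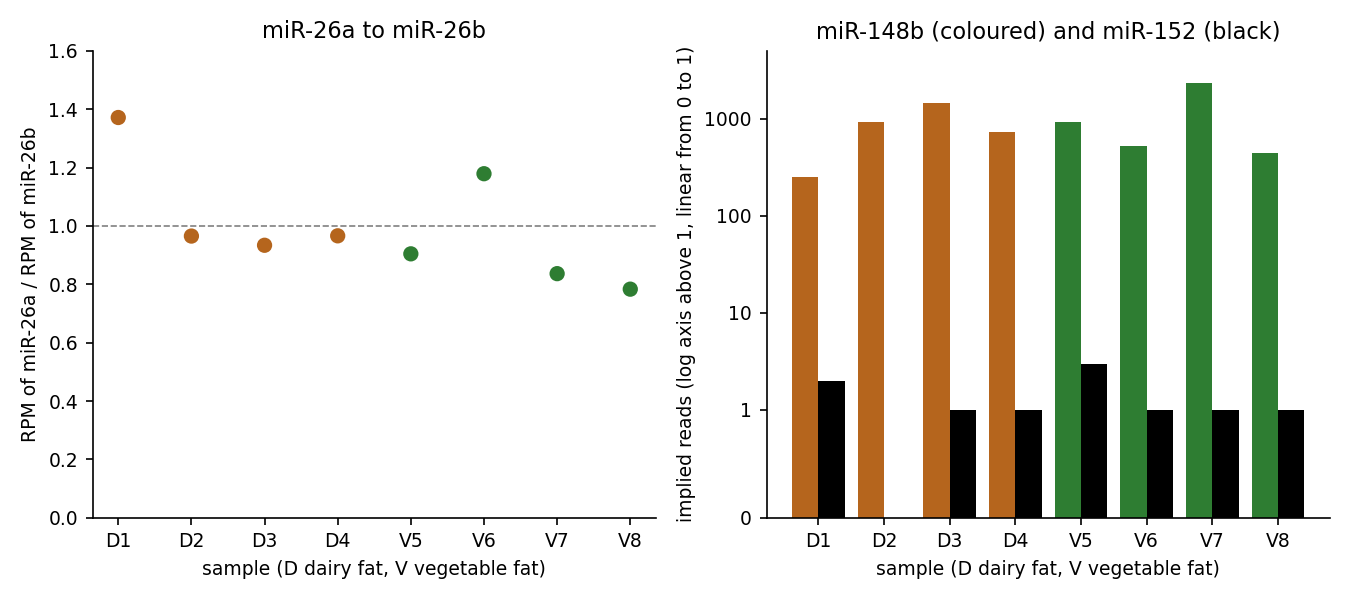
Left, the RPM of miR-26a divided by that of miR-26b in each sample, with a dashed line at 1; dairy sample 1 is highest at 1.37 and vegetable sample 8 lowest at 0.783. Right, implied reads of miR-148b (coloured) and of miR-152 (black) in each sample, on an axis that is linear from 0 to 1 and logarithmic above; miR-152 has 0 to 3 reads in every sample.

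MiR-21 is broadly expressed and is raised in many inflamed and growing tissues. It stood at 5910, 2416, 2235 and 3003 RPM in dairy samples 1 to 4, against 3175, 3271, 3560 and 4628 RPM in vegetable samples 5 to 8. Dairy sample 1 was the highest of all 8, and the other 3 dairy samples were below every vegetable fat sample. The means were 3391 ± 1711 RPM in dairy samples and 3658 ± 667 in vegetable samples (SD, n = 4 each), with an estimate of −0.21 ± 0.32 (SE; −0.93 to 0.51, limma adjusted p = 0.999). The estimate was −0.51 without dairy sample 1, −0.05 without dairy sample 3, −0.08 without dairy sample 2, and −0.09 when vegetable sample 8 was dropped. It turned to 0.05 with upper quartile scaling.

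MiR-22 is abundant in muscle and heart and takes part, in mouse, in the handling of lipids. It stood at 896, 404, 418 and 403 RPM in dairy samples 1 to 4, against 479, 795, 411 and 734 RPM in vegetable samples 5 to 8. Dairy sample 1 was again the highest, and the other 3 dairy samples lay between 403 and 418 RPM. The estimate was −0.23 ± 0.36 (SE; −1.03 to 0.58, limma adjusted p = 0.999), −0.51 without dairy sample 1, and 0.03 with upper quartile scaling. MiR-21 and miR-22 kept a ratio of 5.35 to 7.45 in dairy samples and 4.12 to 8.65 in vegetable samples. The closest microRNAs to miR-21 were miR-188, miR-502a and miR-660, with SDs of the log2 ratio of 0.23, 0.23 and 0.26, and miR-22 ranked 8 at 0.32. The closest to miR-22 were miR-24 at 0.21, miR-99a at 0.25 and miR-502b at 0.27.

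MiR-182 belongs to a cluster that is strong in sensory organs, is also found in lymphocytes and red blood cells, and is known to repress FOXO factors. It stood at 868, 676, 1024 and 503 RPM in dairy samples 1 to 4, against 942, 929, 768 and 1068 RPM in vegetable samples 5 to 8. The 2 lowest values were from dairy fat and the highest from vegetable fat, with overlap between. The means were 767 ± 227 RPM in dairy samples and 927 ± 123 RPM in vegetable samples (SD, n = 4 each), and the estimate was −0.31 ± 0.29 (SE; −0.96 to 0.34, limma adjusted p = 0.999). The estimate stayed below 0 in the 17 alternatives run for it, from −0.47 without dairy sample 3 to −0.05 with upper quartile scaling. Some of these, such as dropping the filter or limma's options, cannot change the estimate. Without dairy sample 4, the lowest of the 8, it was −0.13. Closest to miR-182 were miR-92a and miR-92b, whose values are identical in the tables, at an SD of the log2 ratio of 0.26, and miR-361 at 0.27. The red cell marker miR-486 ranked 17 of 103 at 0.37, and miR-15a ranked 74 at 0.82. The red cell markers took 7.72% ± 1.50 of the reads in dairy samples and 9.23% ± 2.27 in vegetable samples (SD, n = 4 each), and their part in the miR-182 levels was not tested.

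In the miR-148 family, miR-148b was measured well and miR-152 hardly at all. MiR-148a is not analysed here. MiR-148b stood at 176, 301, 418 and 227 RPM in dairy samples 1 to 4, against 280, 282, 587 and 415 RPM in vegetable samples 5 to 8. Dairy samples 1 and 4 were the lowest and vegetable sample 7 the highest, and the dairy fat median was below each of the 4 vegetable fat samples. The means were 280 ± 105 RPM in dairy samples and 391 ± 145 in vegetable samples (SD, n = 4 each). The estimate of −0.48 ± 0.37 (SE; −1.30 to 0.33, limma adjusted p = 0.999) was the farthest from 0 of the 6. It ranked 7 of 104 by unadjusted p (0.219). Its size changed with the libraries included. With 1 sample left out it ran from −0.70 to −0.26, being −0.28 without dairy sample 1, −0.43 without vegetable sample 8 and −0.26 without vegetable sample 7. It was −0.08 without vegetable samples 7 and 8 together, the deepest and the shallowest library. MiR-148b followed miR-19b, a member of the growth-promoting miR-17 cluster, most closely, with an SD of the log2 ratio of 0.14 beside an SD of 0.55 for miR-148b itself. MiR-18 and miR-374a came next at 0.21 and 0.25, whereas the median over the 103 partners was 0.79.

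MiR-152 had 2, 0, 1 and 1 implied reads in dairy samples 1 to 4, against 3, 1, 1 and 1 in vegetable samples 5 to 8. All 8 values were at or under the floor of 3 reads. That makes 4 reads in dairy samples and 6 in vegetable samples, beside 3347 and 4235 reads of miR-148b. In RPM it reached 1 in dairy sample 1 alone, so the limma fit left it out, and no fold between the diets is given. Its log2(RPM + 1) averaged 0.51 ± 0.54 in dairy samples and 0.71 ± 0.30 in vegetable samples (SD, n = 4 each; two-sided exact permutation p = 0.600, adjusted 0.657). Such values are decided by 1 read more or less, and a difference was not detectable at this depth.

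The reads of miR-148b were 837 times those of miR-152 in dairy samples (95% exact interval 327 to 3073) and 706 times in vegetable samples (324 to 1924). The intervals cover counting error only and overlap. With so few reads of miR-152, these ratios moved when 1 library was left out: without dairy sample 1 that of dairy fat was 1550, and that of vegetable fat was 1105 without vegetable sample 5 and 377 without vegetable sample 7. Leaving out samples for these ratios was chosen after seeing the data. In dairy sample 2, with 0 reads of miR-152, no ratio could be formed. Its 933 reads of miR-148b were 311 times the floor of 3 reads, and the lower limit of the exact 95% interval was 252. The other samples gave ratios from 124 in dairy sample 1 (34.0 to 1030) to 2351 in vegetable sample 7 (422 to 92899). The log2 ratio with 1 RPM added to each averaged 7.55 ± 0.99 in dairy samples and 7.84 ± 0.73 in vegetable samples (SD, n = 4 each; difference −0.28, two-sided exact permutation p = 0.657, adjusted 0.657). That difference turned to 0.17 without dairy sample 1 and to 0.07 without vegetable sample 7. MiR-152 was under 1 RPM in all samples but dairy sample 1, so the added 1 RPM weighs heavily here. It brings this ratio below the ratio of reads. The difference was −0.14 with 0.5 RPM added and −0.43 with 5 RPM added. The permutation test therefore cannot decide whether the ratio of reads differed between the diets.

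The spread over the 8 samples was set beside the read total. That total is also the denominator of RPM, so a microRNA with the same reads in every library has a negative slope by construction. In limma with diet kept as a term, 36 of 104 microRNAs (34.6%) had a slope on the log2 read total at an adjusted p under 0.05, of which 34 (32.7%) were lower in deeper libraries and 2 (1.92%) higher. With upper quartile scaling 28 were called, 20 lower and 8 higher. Of the 6 tested members 1 was called, miR-22. Its RPM fell by 0.62 on the log2 scale for each doubling of reads (SE 0.22, limma adjusted p = 0.0343). The 3 libraries with 1855670 reads or fewer held 734 to 896 RPM, and the 5 with 3103305 or more held 403 to 479. In reads, miR-22 had 1254 to 1647 in 7 of the samples, whose totals ran from 1408536 to 4004131, and 779 in vegetable sample 8. The slope was −0.93 within dairy fat and −0.47 within vegetable fat (n = 4 each, with no test). The call for miR-22 was lost without dairy sample 1 (−0.47, limma adjusted p = 0.277), dairy sample 3 (−0.62, 0.0557), vegetable sample 6 (−0.59, 0.0872) or vegetable sample 7 (−0.63, 0.0912), with upper quartile scaling (−0.43, 0.159), and with both end libraries by depth left out (−0.92, 0.0631). The count of 36 was 15 without dairy sample 1, 21 without vegetable sample 7 and 16 with the libraries at both ends of depth left out.

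The other members did not pass this test. The slope of miR-21 was −0.47 ± 0.21 (SE, limma adjusted p = 0.0890), and −0.21 without dairy sample 1. Slopes were 0.10 ± 0.16 for miR-26b, −0.04 ± 0.16 for miR-26a, −0.19 ± 0.23 for miR-182 and 0.31 ± 0.26 for miR-148b. With the read total as a covariate the diet estimates of miR-21 and miR-22 were −0.10 and −0.09, and that of miR-148b was −0.55. What sets the read total of a library is not stated in the labels, and its part in these levels was not tested further.

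**Figure D4:**
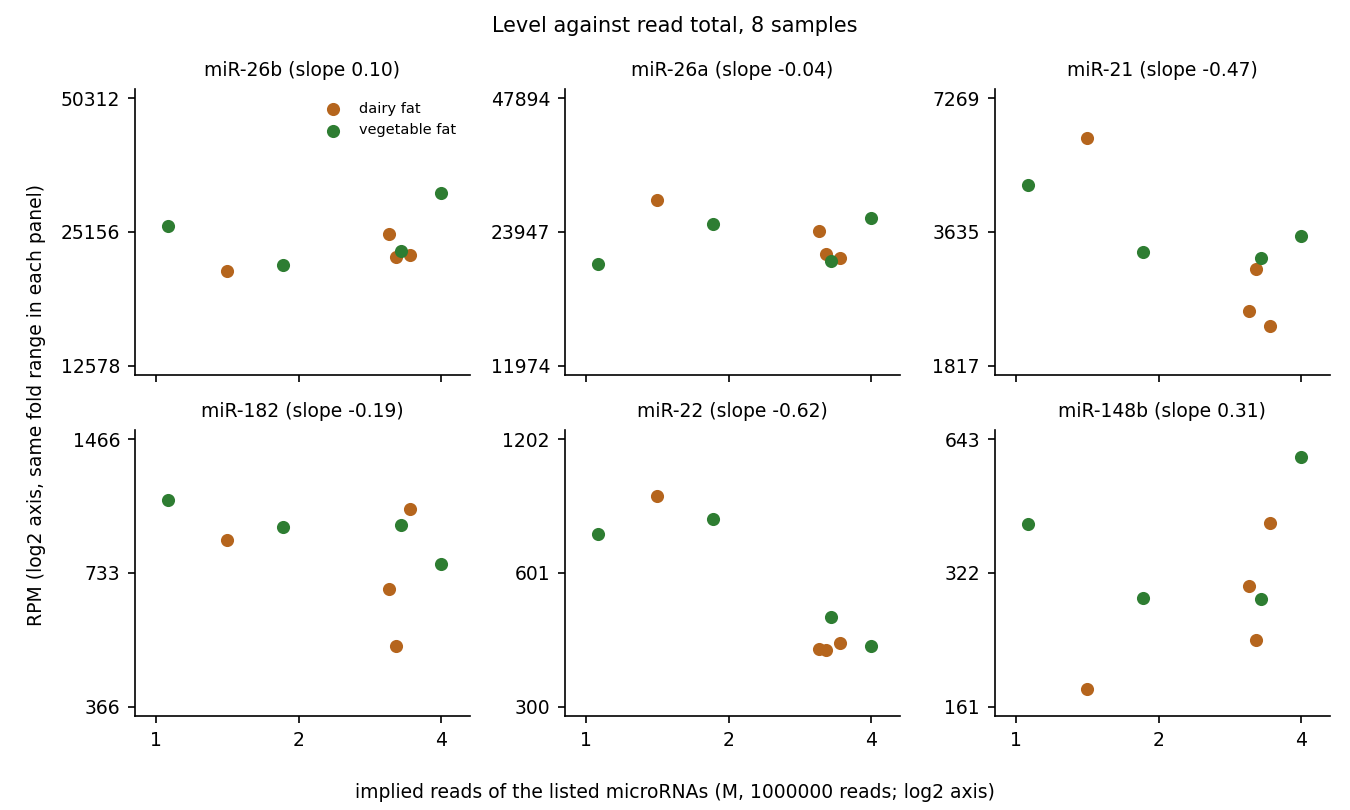
RPM of each microRNA against implied reads, in M (1000000 reads), in the same sample, both on log2 axes, with the same fold range in each panel and 1 point per sample; the number above each panel is limma's slope for each doubling of reads. MiR-22 is called, with its 3 shallowest libraries at 734 to 896 RPM, and the points of miR-26a and miR-26b lie nearly level.

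Other microRNAs known for abundance in milk were taken from a fixed list of 27 names, of which 14 were listed, in 15 rows since miR-103a and miR-103b are given apart with identical values. Among them are let-7a, let-7b, let-7f and let-7g, which restrain growth, miR-191, miR-30a, which acts on autophagy, and miR-29a, which represses collagens. None of the 15 was called between the diets, against 0 of 104 in all. Their estimates ran from −0.37 for miR-186 to 0.29 for let-7a, with 6 above 0, 9 below and a median of −0.08, beside −0.07 over all 104. With upper quartile scaling 13 were above 0 and 2 below, with a median of 0.19, beside 83 above and 21 below and a median of 0.19 over all. Set against the median over all 104, 7 of the 15 were above and 8 below under each scaling, which follows largely because a scaling shifts all microRNAs alike.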

How the data were processed

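Per the labels' protocols, the miRNeasy Micro kit gave the plasma RNA and the QIAseq miRNA kit the libraries. The submitters' processing notes name cutadapt 3.4. No aligner, reference set, counting tool, use of molecular identifiers or filter is named in the sources used here. Values as deposited are RPM of 108 microRNAs, and each table sums to 1000000. Names carry no arm, and no mature sequences or genome positions were used here. In the vegetable fat tables the column header and the sample title name the same diet but different sample numbers, and the titles were followed.

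All 108 values of every sample were whole multiples of a step to within 0.01 reads, which gave the implied reads. Because the values as deposited are RPM, a test on the log scale was used and no count test was run. All pairs of tables differed by more than counting noise (chi-square per degree of freedom at least 304.1). The diets were compared in R 4.3.3 with limma 3.58.1, with its trend and robust options, on log2(RPM + 1). Tested were the 104 microRNAs with 4 or more samples at 1 RPM, adjusted by Benjamini-Hochberg with a threshold of 0.05. The fit was tested on simulated data, with changes larger than any estimate of the tested members and the same spread for all microRNAs. That test does not show how well differences as small as those of the members are found. For single values, all 70 assignments were enumerated in two-sided exact permutation tests (scipy 1.17.1). Likeness of microRNAs is the SD over samples of their log2 ratio, and the 3 closest to each tested member are named. The members and lists were chosen with earlier results of these data known. Upper quartile scaling divided each sample by its upper quartile over the listed microRNAs. Alternatives changed the pseudocount, filter, scaling, limma's options, covariates and the samples included.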

Additional observations from a re-analysis of the deposited data

Results flagged for a closer look

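In 22 sets of 4 samples, 1 for each diet and each of 11 measures, 3 values stood far from the others of their diet, where chance gives about 1 in 20, or 1.1. The 11 measures share samples and reads, so these sets are not independent and 1.1 is only a rough guide. All 3 values were of dairy sample 1. Its miR-22 level was 896 RPM, against 403 to 418 in the other dairy fat samples. Its ratio of miR-26a to miR-26b was 1.37, against 0.934 to 0.966. Its implied reads were 1.41 M (M, 1000000 reads), against 3.10 to 3.44 M.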

How the results depend on the processing

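The count of microRNAs called between the diets was 0 in each of the 17 alternatives run, with smallest limma adjusted p from 0.560 without vegetable sample 7 to 0.999. No member was called in any of them. Refits with no filter or without limma's trend and robust options cannot change an estimate, and other pseudocounts hardly move one at these levels. Of 102 refitted differences of the 6 tested members, these refits among them, 95 kept their sign. The others were 0.054 for miR-21, 0.035 for miR-22 and 0.11 for miR-26b with upper quartile scaling, 0.030 for miR-26b without the shallowest and the deepest library, and 3 of the 8 values of miR-26a with 1 sample left out, which ran in all from −0.047 to 0.10. The log2 ratio of miR-26a to miR-26b kept its sign in 11 alternatives (0.063 to 0.32), of which the changes of pseudocount could hardly move it. That of miR-148b to miR-152 was 0.21 as a difference of medians and ran from −0.54 to 0.17 with 1 sample left out. With 7 samples the smallest two-sided exact p is 0.0571, so those p-values say nothing about stability. The count of microRNAs whose level moved with the read total was 16 without the shallowest and the deepest library and 15 to 42 with 1 sample left out. The slope of miR-26a was 0.15 with upper quartile scaling and −0.21 to 0.087 with 1 sample left out, and that of miR-26b −0.0044 to 0.23. The cause of these turns was not tested. No paired analysis was possible because the labels do not say which samples, if any, came from the same animal. Depth limits miR-152, which had 0 to 3 implied reads in each sample.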
